A study of Mus musculus with 3 samples.

Results

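The fatty acid binding protein (Fabp) genes were measured on 3 microarrays of cells from mouse testis. The members were the 9 genes whose symbol in the platform annotation belongs to the family, Fabp1, Fabp2, Fabp3, Fabp4, Fabp5, Fabp6, Fabp7, Fabp9 and Fabp12, out of 19938 genes with a level. The family was chosen by name, but also by measured values, because Fabp9 was already known to be among the highest genes on these arrays. The levels of the members are therefore given as a description, and support nothing by themselves. The samples formed 1 group of 3 replicates, labelled as spermatids (haploid male germ cells) from testes of wild type male BALB/c mice aged 30 days, with no treatment and no control group. Per the labels' protocols the tubules were cut, homogenised and strained into single cells. A step that selects spermatids is not described there. The labels do not state whether the replicates are different mice, so their spread may be technical.

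Fatty acid binding proteins are small cytosolic proteins that fold into a barrel, hold a long-chain fatty acid or a similar ligand inside it, and carry it between membranes, enzymes and nuclear receptors. Most members are named for the tissue where they are abundant: liver (Fabp1), intestine (Fabp2), heart and muscle (Fabp3), adipocytes and macrophages (Fabp4), epidermis (Fabp5), ileum (Fabp6) and brain (Fabp7). Fabp9, also called Perf15 or testis lipid binding protein, is a protein of the perinuclear theca, the shell around the sperm nucleus, and Fabp12 is a later addition to the family.

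Levels are on the log2 scale, after Robust Multichip Average (RMA) processing by the authors, and each error is the SD over the 3 arrays. Probes of different genes bind with different strength, so a difference between genes describes the arrays and not the amounts of RNA. A level of 7.98 served as background. It is the 95th percentile of 211 vomeronasal receptor and hair keratin associated protein genes, which are not expected in testis and whose median was 4.77. A gene was called above background where limma's moderated test of its mean against that level, one-sided, gave an adjusted p under 0.05 (Benjamini-Hochberg over the whole table). By this rule 36.6% of all genes were called, and 3 of the 9 Fabp genes were: Fabp9, Fabp3 and Fabp12. The family's median level was 7.20, against 7.45 for all genes. Since the members were chosen with these levels known, the count is not read against that share.

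The cells were checked against marker genes. All 12 spermatid markers and all 10 pachytene spermatocyte markers were called above background, with list means of 12.32 to 12.38 and 11.50 to 11.64 on the 3 arrays. Whether transcripts of the spermatocyte markers came from spermatocytes or from spermatids was not tested. Of somatic markers, 7 of 8 measured for Leydig cells, 6 of 11 for Sertoli cells and 4 of 10 for macrophages were called. Among 10 spermatogonia markers 4 were called. The share over all genes was 36.6%, and differences from it were not tested. The macrophage and spermatogonia counts lie near it. The Sertoli count is of few genes, and Sox9, Amh, Inhbb, Gata1 and Dhh were not called. The macrophage, spermatogonia and Sertoli counts are therefore not read as showing those cells. None of 10 endothelial, 8 liver, 9 small intestine, 8 epidermal and 11 epididymal markers was called by limma's adjusted test, nor at an unadjusted p under 0.05. With a lower background from olfactory receptor genes the counts were 3, 1, 0, 1 and 2. The epididymal list differed between arrays, with means of 6.15, 6.46 and 6.75 in replicates 1, 2 and 3. Only its genes Adam7, Spink8 and Rnase9 were higher in replicate 3 than in replicate 1. Spink8 was above the background level on 2 arrays and Adam7 on 1, without being called. In a mixture of cell types, fewer cells of a type and less RNA per cell cannot be told apart. Column medians of the arrays were 7.17, 7.20 and 7.17, and 46.0% of the genes had exactly the same value on all 3 arrays, so an SD of 0 below means tied values and not an absence of error.

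Upstream sequence was available here for 5 of the 9 members, Fabp1, Fabp2, Fabp3, Fabp6 and Fabp7. Among these, Fabp3 was called above background and Fabp1 had the lowest level of the family, so the 250 bases before each of these gene starts are shown. They come from RefSeq on assembly GRCm38.p6, on the plus strand, at chr4:130308488-130308737 for Fabp3 and chr6:71199629-71199878 for Fabp1. Capitals mark matches on either strand to the motifs searched.
Fabp3: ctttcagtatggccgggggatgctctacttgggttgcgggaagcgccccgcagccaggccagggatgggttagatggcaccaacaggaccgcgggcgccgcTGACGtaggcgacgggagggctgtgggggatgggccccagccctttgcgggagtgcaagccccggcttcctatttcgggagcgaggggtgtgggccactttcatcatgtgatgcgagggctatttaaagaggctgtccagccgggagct
Fabp1: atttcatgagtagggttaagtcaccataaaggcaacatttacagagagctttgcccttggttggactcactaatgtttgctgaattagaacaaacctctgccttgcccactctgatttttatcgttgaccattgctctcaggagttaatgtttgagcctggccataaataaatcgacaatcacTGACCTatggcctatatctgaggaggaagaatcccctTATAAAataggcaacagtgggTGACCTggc

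The Fabp3 stretch held 17 CpG dinucleotides and was 64.8% G and C, whereas the Fabp1 stretch held 2 CpG and was 42.8% G and C. The median over 32851 promoters was 6 CpG. Fabp3 had 1 match to TGACG, the core of the cAMP response element, which 17.8% of all promoters of this length held, and Fabp6, which was not called, had 1 as well. The full element TGACGTCA, which contains that core, was in 1.55% of promoters and in none of the 5. Fabp1 had 1 TATAAA, found in 12.4% of promoters, and 2 matches to AGGTCA, the core of nuclear receptor sites, found in 14.0%. Fabp6 also had 1 TATAAA and Fabp7 1 AGGTCA. The GC box GGGCGG was in 32.7% of promoters and in none of the 5, and CCAAT, in 33.8% of promoters, occurred in Fabp2 and Fabp7. All motifs were searched on both strands, and a match is a description of letters only.

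Fabp9 was at 12.96, 12.86 and 13.11 in replicates 1, 2 and 3, a mean of 12.98 ± 0.13 (n = 3). It ranked 3rd of 19938 genes from the top, and 99.98% of genes were lower. Replicate 3 was highest and replicate 2 lowest, over a range of 0.25. The same order of arrays, replicate 3 above 1 above 2, was found in 107 of the 155 genes with a mean over 12, and in 20.9% of the 10765 genes that were not tied. The SD of Fabp9 was larger than the median of 0.059 among those 155 genes, of which 13 (Fabp9 included) had an SD at least as large.

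**Figure D1:**
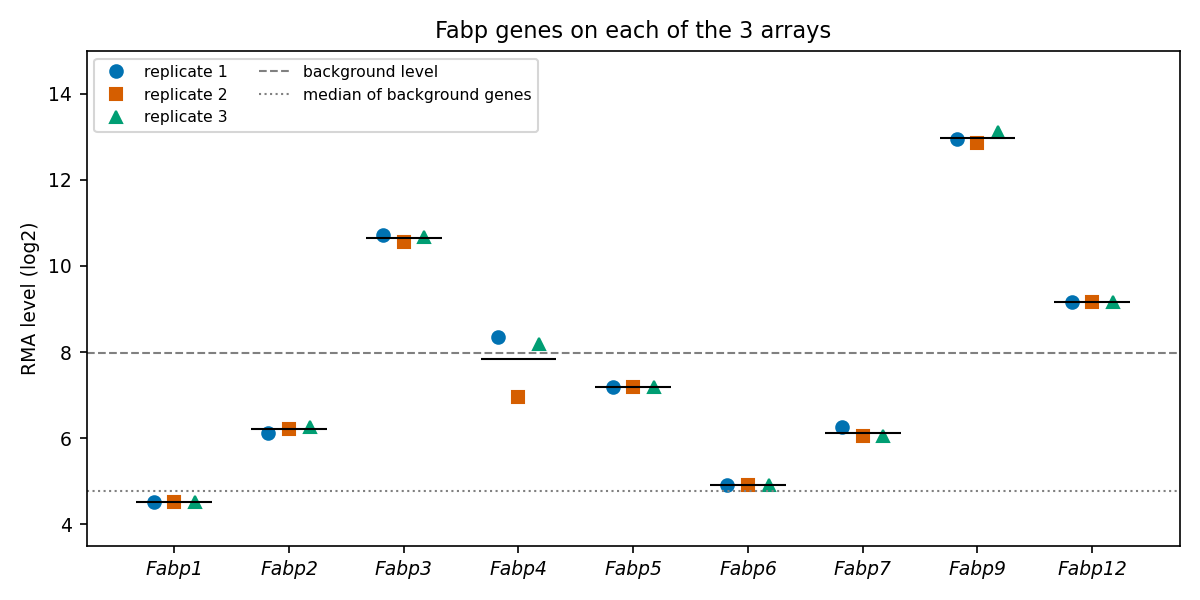
RMA level (log2) of each Fabp gene on each array, with the mean as a black line, the background level of 7.98 dashed and the median of the background genes, 4.77, dotted. Fabp9, Fabp3 and Fabp12 lie above the background level on every array, and Fabp4 lies above it in replicates 1 and 3 and below it in replicate 2.

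The 5 genes whose values on the 3 arrays lay closest to those of Fabp9, by root mean square distance over the arrays, were Spa17, Smcp, Ldhc, Clec2m and Eef1a1. Spa17, which encodes a sperm surface protein, was at 12.94, 12.84 and 13.11, a distance of 0.020. Smcp, a gene of the sperm mitochondrial capsule, lay at a distance of 0.073 and Ldhc, the lactate dehydrogenase of germ cells, at 0.080. Of these 5 genes, Spa17, Smcp, Ldhc and Clec2m had replicate 3 highest and replicate 2 lowest, and Eef1a1 was tied. Because the genes were picked by closeness on these same arrays, a shared order is partly built in.

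Fabp3, the heart and muscle member, was measured by a pair of probe sets. One read 10.67, 10.61 and 10.64 in replicates 1, 2 and 3, and the other 10.77, 10.52 and 10.69. Their means, 10.64 ± 0.03 and 10.66 ± 0.12 (n = 3 each), differed by less than the spread of the second. The gene level was 10.65 ± 0.08, and 93.2% of genes were lower. A pseudogene, Fabp3-ps1, is listed in RefSeq, and which copy each probe set reads was not tested. Of 9 heart and skeletal muscle markers 1 was called, Tnnt2, beside 36.6% of all genes, and the mean of that list was 7.10 ± 0.04.

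Fabp12 was at 9.15 on all 3 arrays, with tied values, and 79.0% of genes were lower. Because its SD is 0, the test asks little more than whether its level lies above the background, and the call depended on that background: at the 99th percentile of the same background genes it lay 0.012 below the level, and the family count fell from 3 to 2. Of the 211 background genes 3 had a higher mean than Fabp12, and none was higher than Fabp3 or Fabp9.

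Fabp4, the adipocyte and macrophage member, was at 8.35, 6.95 and 8.20 in replicates 1, 2 and 3, a mean of 7.83 ± 0.77 (n = 3). Replicates 1 and 3 were above the background level and within 0.15 of each other, and replicate 2 was below the background level. Because that value lies below background, the differences given here are between RMA levels and do not measure the size of a change in RNA. This was the 6th largest SD of all 19938 genes. Among the 2085 other genes with a mean within 0.25 of it, the largest SD was 0.53, for Phf11c. Fabp4 was not called above background, and without replicate 2 its mean lay 0.33 above the level recomputed on those arrays and was again not called (limma, adjusted p = 0.169).

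**Figure D2:**
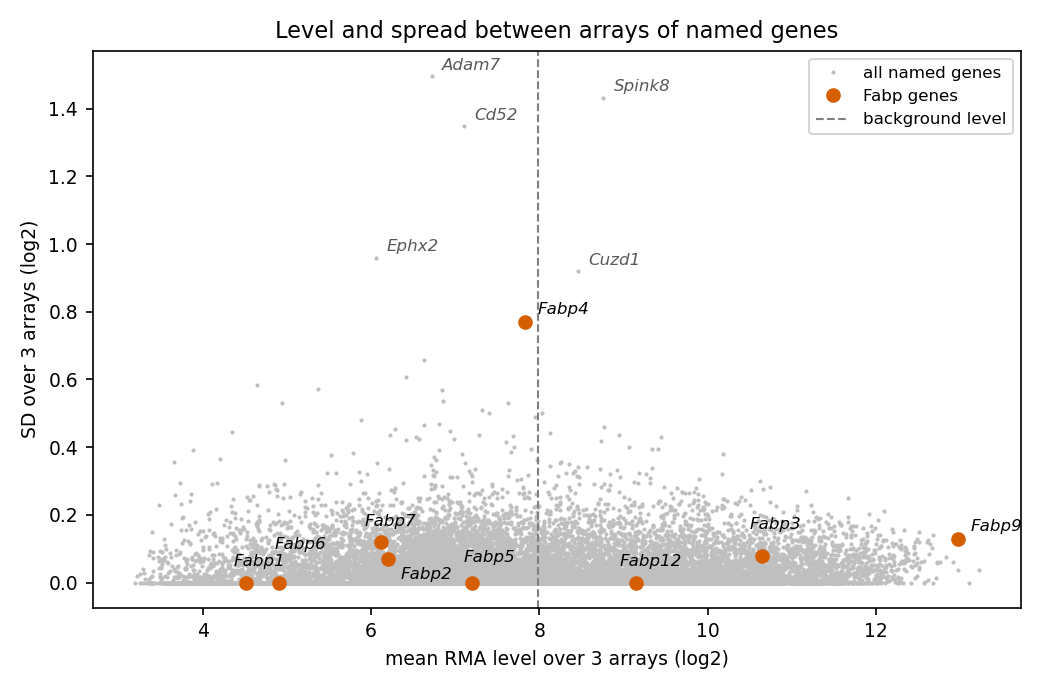
SD over the 3 arrays against the mean RMA level (both log2) for all named genes in grey and the Fabp genes in orange, with the background level dashed. Fabp4 stands at an SD of 0.77, below Adam7, Spink8, Cd52, Ephx2 and Cuzd1, and the other Fabp genes have SDs of 0 to 0.13.

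By the smaller of its gaps to the other arrays, Fabp4 had the largest deficit in replicate 2 of all genes. It was the 1 gene of 19938 whose value in replicate 2 was more than 0.9 below both other arrays, and 17 genes were more than 0.5 below both. The next genes in that order, named after their values were seen, were the predicted gene Gm9805 at 6.74, 5.92 and 7.22, and Car3, a carbonic anhydrase abundant in fat and skeletal muscle, at 7.79, 6.83 and 7.57. Neither was called above background.

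Values of markers of cells that are known to express Fabp4 are given here beside it. Most of these markers were not called above background, where a level can show little of a change, and several were tied. In the adipocyte list the mean was 7.27, 7.26 and 7.23 on the 3 arrays. Beside 36.6% of all genes, 1 of its 8 measured markers was called, Lipe, which Leydig and germ cells also express. Adipoq, the adipocyte hormone adiponectin, was at 7.82, 7.66 and 7.79, so that replicate 2 minus the mean of the others was -0.15, against -1.33 for Fabp4. Of the other adipocyte markers, Plin1 was 0.08 and Retn 0.18 higher in replicate 2, Cidec was 0.02 and Lipe 0.01 lower, and Lep, Pparg and Cidea were tied. All of these except Lipe had means below the background level. Car3, which is not in this list, stood at -0.85 by the same measure. It was picked above for its deficit in replicate 2, so that value adds nothing about these markers.

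The macrophage list mean was 7.67, 7.68 and 7.70 in replicates 1, 2 and 3, and the endothelial list mean was 6.92, 6.94 and 6.92, with 8 of 10 endothelial genes tied. Mrc1 had the largest deficit in replicate 2 among macrophage markers, at -0.15 against the mean of the others. The fatty acid translocase gene Cd36, which adipocytes, macrophages and Leydig cells express, was at 9.27, 8.83 and 9.15, with a difference of -0.39 for replicate 2 against the mean of the others. Of 11 genes of fatty acid uptake and transport, Cd36 included, 5 were lowest in replicate 2, 1 was highest there and 3 were tied. Over all genes 17.3% were lowest in replicate 2. The difference from that share was not tested, and the count is not read as a result about the list. Lpl, in that list, had a difference of -0.21 and was not called. The part of any cell type in the Fabp4 difference was not tested.

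**Figure D3:**
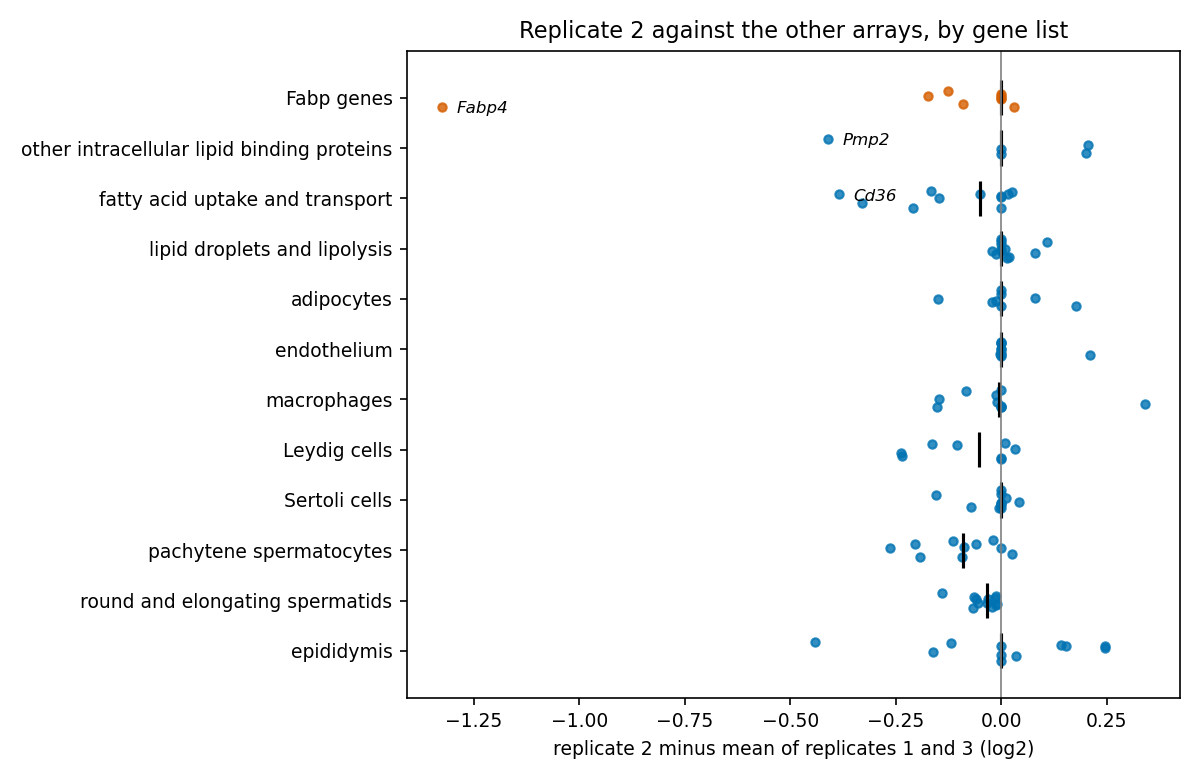
Difference between replicate 2 and the mean of replicates 1 and 3 (log2), 1 point per gene, for the Fabp genes in orange and other lists in blue, with list medians as black bars. Fabp4 lies at -1.33, apart from every other plotted gene, the next being at -0.44.

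Fabp5, the epidermal member, was at 7.20 with tied values and below the background level. Its probe sets read 7.03 and 7.36, each tied on all arrays. RefSeq lists a pseudogene of it, Fabp5l2, so these levels are uncertain. With a background taken from olfactory receptor genes, Fabp5 lay 0.014 above the level and was called, which raised the family count to 4. That call rests on the tied values, for which so small an excess passes.

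The members of gut, liver and brain were low. Fabp2 was at 6.12, 6.22 and 6.26 (mean 6.20 ± 0.07, n = 3) and Fabp7 at 6.25, 6.05 and 6.04 (mean 6.11 ± 0.12). Fabp6, the bile acid binding protein of the ileum, was at 4.90 and Fabp1 at 4.51, both tied, close to the median of the background genes. Of the 211 background genes 127 were higher than Fabp1, 98 higher than Fabp6, 38 higher than Fabp7 and 37 higher than Fabp2. Markers of their home tissues were counted beside the 36.6% of all genes called, without a test. None of 8 liver markers was called (list mean 6.31 ± 0.04), none of 9 small intestine markers (6.34 ± 0.13), and 1 of 8 measured glial markers, Slc1a2 (7.01 ± 0.03). With the olfactory receptor background the counts were 1, 0 and 3, beside 54.96% of all genes. A gene that was not called is not shown to be absent.

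Fabp5, Fabp9, Fabp4 and Fabp12 lie in 1 cluster on chromosome 3 in the RefSeq order of GRCm38.p6, together with Pmp2, the myelin P2 protein gene also known as Fabp8. Of these 5 genes Fabp9 and Fabp12 were called. Pmp2, which is next to Fabp9, was at 7.79, 7.53 and 8.08 (mean 7.80 ± 0.28, n = 3) and was not called. Fabp4, its neighbour on the other side, was described above. Between Fabp5 and Pmp2 lies the pseudogene Gm9833, at 4.61, 5.25 and 4.08 (mean 4.65 ± 0.58), not called and highest in replicate 2.

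**Figure D4:**
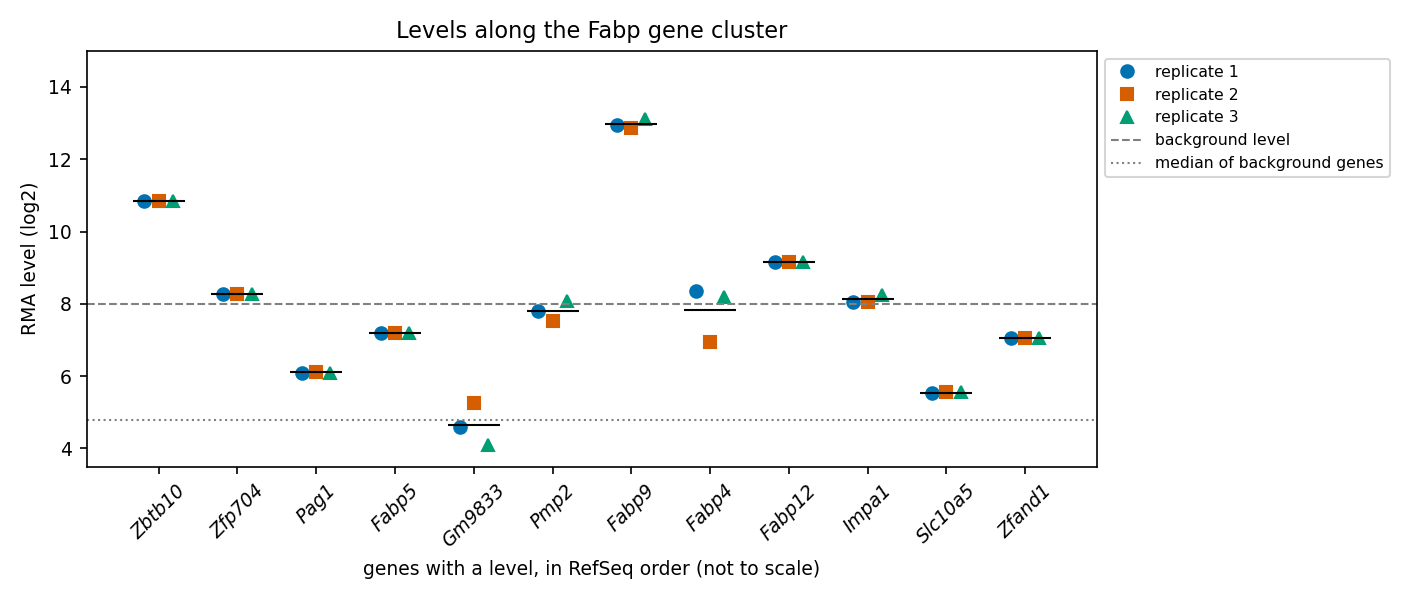
RMA level (log2) on each array of the genes from Zbtb10 to Zfand1 that had a level, in RefSeq order on chromosome 3 with equal spacing, with means as black lines and the background levels as in the plot of the family. Fabp9 stands at 12.98 between Pmp2 at 7.80 and Fabp4 at 7.83.

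Pmp2 had the same order of arrays as Fabp9, with replicate 3 highest and replicate 2 lowest, over a wider range of 0.56. The annotation of their probe sets shares 1 transcript accession. Whether probes for Pmp2 read transcripts of Fabp9 was not tested. Outside the cluster, the nearest genes with a level were Pag1 at 6.10 ± 0.02, an adaptor of signalling in lipid rafts, on the Fabp5 side, and Impa1 at 8.13 ± 0.11, an inositol monophosphatase, on the Fabp12 side, neither called. Beyond Pag1, the zinc finger genes Zfp704 at 8.27 ± 0.0052 and Zbtb10 at 10.84 ± 0.0050 were both called. Beyond Impa1, the transporter gene Slc10a5 at 5.54 ± 0.02 and Zfand1 at 7.05, with tied values, were not.

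Other intracellular lipid binding proteins, which share the barrel fold and bind retinoids or fatty acids, had 1 of 5 measured genes called. Over all genes the share was 36.6%, and so few genes are not read against it. The called gene was Crabp1, a cytosolic retinoic acid binding protein, at 10.54, 10.69 and 10.43 (mean 10.55 ± 0.13, n = 3). Crabp1 was highest in replicate 2 and lowest in replicate 3, the reverse of the order in Fabp9. Crabp2, Rbp2 and Rbp7 were at 6.76, 6.71 and 6.39 and not called.

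Genes that act around the Fabp proteins were counted by step, beside the 36.6% of all genes called, and differences between these lists were not tested. A call of a tied gene in these lists says little more than that its level lies above the background. Of 13 measured genes of acyl-CoA synthesis and binding, which activate fatty acids and carry the products, 11 were called, with a median level of 9.44. Among the called genes 5 were tied on all arrays. The highest was Dbil5, a testis acyl-CoA binding protein also called endozepine-like peptide, at 12.36, 12.24 and 12.45 (mean 12.35 ± 0.11), with the same array order as Fabp9. Acsbg2, a testis acyl-CoA synthetase, was at 9.96 and Dbi, the acyl-CoA binding protein of most tissues, at 10.10, both tied, and the lowest was Acbd7 at 5.72 ± 0.11.

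In fatty acid uptake and transport 3 of 11 genes were called, Cav1 at 9.20 ± 0.08, Cd36 at 9.09 ± 0.23 and Got2 at 8.22 ± 0.06. The transporter Slc27a6 was at 8.47 ± 0.20, with a mean above the level but not called. Slc27a1, Slc27a2, Slc27a3, Slc27a4 and Slc27a5 lay between 6.06 and 7.61 and were not called.

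Of 12 lipid droplet and lipolysis genes 6 were called. The highest were Abhd5, the activator of triglyceride lipase, at 11.17 ± 0.02 and the droplet coat gene Plin2 at 10.83 ± 0.01. The lipase genes Lipe and Pnpla2 were at 9.75 ± 0.02 and 9.64, and the adipocyte droplet genes Plin1 and Cidec, at 7.30 ± 0.05 and 6.83 ± 0.07, were not called.

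None of the 11 measured lipid-sensing nuclear receptor genes, to which several Fabp proteins deliver ligands, was called, by limma's adjusted test. The highest means were Rxra at 7.97 and Pparg at 7.93, just under the background level, and Ppara was at 6.41. At an unadjusted p under 0.05 the count was 0 too, and with the olfactory receptor background it was 6.

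**Figure D5:**
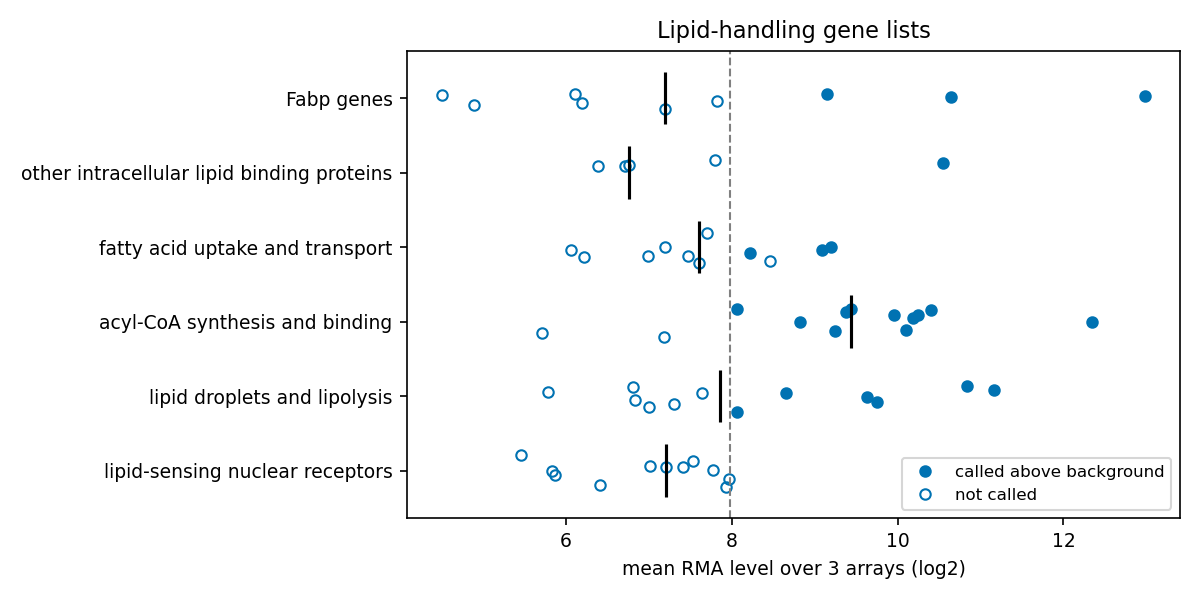
Mean RMA level (log2) over 3 arrays of each measured gene in 6 lists of lipid handling, filled where called above background and open where not, with list medians as black bars and the background level dashed. Fabp9 at 12.98 and Dbil5 at 12.35 are the highest points, and the acyl-CoA list has the highest median, 9.44.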

How the data were processed

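Per the series' design text, the authors hybridised RNA to the Affymetrix GeneChip Mouse Gene 1.0 ST array, applied RMA and summarised probe sets with Affymetrix Power Tools and mm9 annotation. The series' text states no version of that software. The deposited values, 35556 probe sets in 1 column per sample, are log2 levels and were used as given. The platform annotation named 1 gene for 21789 probe sets, several for 1621 and none for 12146. Symbols were updated by Entrez identifier to GRCm38.p6, and each gene took the median over those probe sets annotated to it alone.

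Levels were tested against background across all genes with limma 3.58.1 in R 4.3.3 (intercept model, empirical Bayes), after a test on simulated data. The simulated SDs were drawn from untied genes only, so that test did not cover calls of tied genes. The members and all gene lists were chosen with earlier results of these data known. Named genes were the members, genes drawn from the highest and lowest of the lists, the cluster with 3 genes on each side, and the 5 genes closest to Fabp9. Further list members were named after their values were seen. The planned alignment of the Fabp proteins was not run, because no protein sequences were used here. The number of arrays limits the precision.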

Additional observations from a re-analysis of the deposited data

How the results depend on the processing

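The background and the arrays used moved 4 member levels across the background level, out of 76 recomputed over the 9 genes, and the other 72 kept their side and their call. With the olfactory receptor background, at 7.18, Fabp4 lay 0.65 above it, not called, Fabp5 0.014 above it, called, and 54.96% of all genes were called, against 19.3% at the 99th percentile level of 9.16. At that stricter level Fabp12 stood at -0.012 and was not called. With each replicate left out in turn, the level of Fabp4 against background ranged from -0.41, without replicate 1, to 0.33, without replicate 2. The count of 3 members above background ranged from 2 to 4, and was 3 with probe sets of several genes added, with the highest probe set, with centred arrays, without any 1 replicate, and when all arrays had to lie above the level. The SD of Fabp4, 0.77 over 3 arrays, ranged from 0.11 without replicate 2 to 0.99 without replicate 3, and was 0.78 with arrays centred on their medians. Fitting only genes above the median level left out 5 members, which gave no value there. No paired analysis was possible because there was 1 group. Scanner files were not used here, so signal over the array's own background is unknown, and the 95th percentile rests on few receptor and keratin genes.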

Other observations

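The genes with a larger SD over the arrays than Fabp4 were Adam7, Spink8, Cd52, Ephx2 and Cuzd1. Adam7, an epididymal membrane protein gene, was at 5.28, 6.61 and 8.26 in replicates 1, 2 and 3, and Spink8, an epididymal protease inhibitor gene, at 7.37, 8.68 and 10.23. Cd52, a surface glycoprotein gene of lymphocytes and epididymis, was at 5.74, 7.13 and 8.44, and Cuzd1 at 7.64, 8.30 and 9.45. These 4 genes were lowest in replicate 1 and highest in replicate 3, unlike Fabp4, which was lowest in replicate 2. Ephx2, the soluble epoxide hydrolase of fatty acid epoxides, was at 5.50, 7.16 and 5.50, high in replicate 2, where Fabp4 was low. None of the 5 was called above background by limma's adjusted test.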
